A study of Mus musculus with 3 samples.

Results

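Proteasome genes were read on 3 two-colour Agilent arrays that set multipotent progenitors (MPPs) of Mef2c-deficient mice against MPPs of control mice. The genes were those whose name on the array began with Psm, a letter from a to g and a number. There were 44 such names on 67 probes, of 22220 genes tested and 41174 probes on the array. Of the 44, 40 are proteasome subunits: 3 of the immunoproteasome (Psmb8, Psmb9, Psmb10), 22 of the regulatory particles (Psmc, most Psmd, Psme and Psmf1) and 15 of the core. The core class holds Psma1 to Psma8 and Psmb1 to Psmb7, which are constitutive except for the testis subunit Psma8. A further 3 names (Psmd5, Psmd9, Psmd10) are assembly chaperones, and Psmc3ip shares only the name. Every one of the 44 was well above background in all 6 samples and passed the filter on dim probes. The probes of Psme2b-ps list the accessions of both Psme2 and Psme2b, so those genes could not be told apart, and the 20S assembly chaperones Psmg1, Psmg2 and Psmg3 stand on the array under older names and are given with the other genes of the pathway.

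Mef2c-deficient mice carried Mx1-Cre and floxed Mef2c alleles (Mx1-Cre Mef2c f/f), and control mice carried the floxed alleles without Cre (Mef2c f/f). Both groups received 250 µg of poly(I:C), an RNA analog that induces interferon and through it Mx1-Cre, in each of 4 injections, and bone marrow was taken 2 days after the last. The Mx1 promoter responds to interferon in many cell types, so deletion is not limited to progenitors. MPPs were sorted as lineage-negative cells with c-kit and Sca-1 on their surface, 15000 per sample, and their cDNA was amplified by PCR before labelling. Each array carried 1 mutant sample in Cy3 and 1 control sample in Cy5, so an effect of Cre or of the dye and one of Mef2c loss cannot be told apart. Values are log2 ratios of mutant over control, or log2 levels of a single channel, which are not comparable between genes. Age and strain of the mice are not stated in the labels.

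The proteasome is the protease that breaks down ubiquitin-tagged proteins. Its 20S core is a barrel of alpha rings, which gate the entrance, around beta rings, which hold the catalytic sites. The 19S particle caps the barrel, binds and removes ubiquitin chains, and unfolds the substrate with a ring of ATPases. Interferon induces 3 alternative catalytic subunits that replace the constitutive ones in newly built barrels, and this immunoproteasome favours peptides that suit class I antigen presentation. Cells of the blood lineages hold it even without added interferon.

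The level of Mef2c itself did not separate the groups. It was 12.99, 13.09 and 12.82 in the mutant samples and 12.91, 12.99 and 13.78 in the controls, and its log2 ratio averaged -0.26 ± 0.61 (SD, n = 3). Signs follow the labels, but the authors' deposited ratios correlated with the scanner's Cy5 over Cy3 at -0.95 and -0.94 on arrays 1 and 3 and at 0.94 on array 2. If array 2 was a dye swap, its signs below are reversed. The summed level of 5 neutrophil markers (Ngp, S100a8, S100a9, Camp, Ltf) ran between 11.52 and 13.17 in mutant samples and between 12.97 and 16.37 in controls, with control sample 1 at the top. That of 8 macrophage and dendritic cell markers ran between 13.83 and 14.11 in mutant samples and between 13.73 and 14.11 in controls, though single markers ran apart on all 3 arrays, with mean ratios of 1.0 for Adgre1, 0.70 for Itgax, 0.41 for Csf1r and -1.10 for Cd74. Of 5 progenitor genes (Kit, Ly6a, Cd34, Flt3 and Slamf1), Kit and Ly6a encode the sorted c-kit and Sca-1. Ly6a averaged 0.82 and Slamf1 1.16, each with every mutant sample above every control. Flt3 averaged -1.15, with every mutant sample below every control, but its mean was -0.32 with array 2 turned. Kit averaged -0.36 and Cd34 -0.29, and both overlapped between groups. Of 5 T and NK cell genes, Cd3g (-0.77) and Cd4 (-0.43) had every mutant sample below every control. Nkg7 (0.48) had every mutant sample above, and Cd3e (-0.13) and Klrd1 (-1.09) overlapped between groups. Of all genes, 7.21% had every mutant level above every control level and 11.7% had every mutant level below. None of the 12 lists compared for other cells and pathways had a tested member below background in every sample. The filter on dim probes fixed this in advance, so it does not show which cells were present. The part of other cells in the ratios that follow was not tested. In sorted bulk samples, fewer cells of a type and less RNA per cell cannot be told apart.

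In Mef2c-deficient MPPs most proteasome subunits had ratios slightly above 0, and no single gene passed the test. The mean ratio was above 0 for 32 of the 40 subunits (80%), against 45.4% of all genes tested. The median over subunits was 0.22, against -0.04 over all genes, and the means lay between -0.18 and 0.92. With array 2 turned, 30 of the 40 were above 0, with a median of 0.08 against -0.01 over all genes, and with median centring 27 were, with a median of 0.11 against -0.18. By array, 29, 25 and 28 of the 40 subunits were above 0 on arrays 1, 2 and 3. All 3 ratios were above 0 for 12 subunits (30%; 15.2% of all genes), and all 3 were below 0 for Psme3 alone (2.5%; 20.3% of all genes). In 10 subunits (25%) every mutant level was above every control level, which held for 7.21% of all genes, and in none was every mutant level below, which held for 11.7%.

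**Figure D1:**
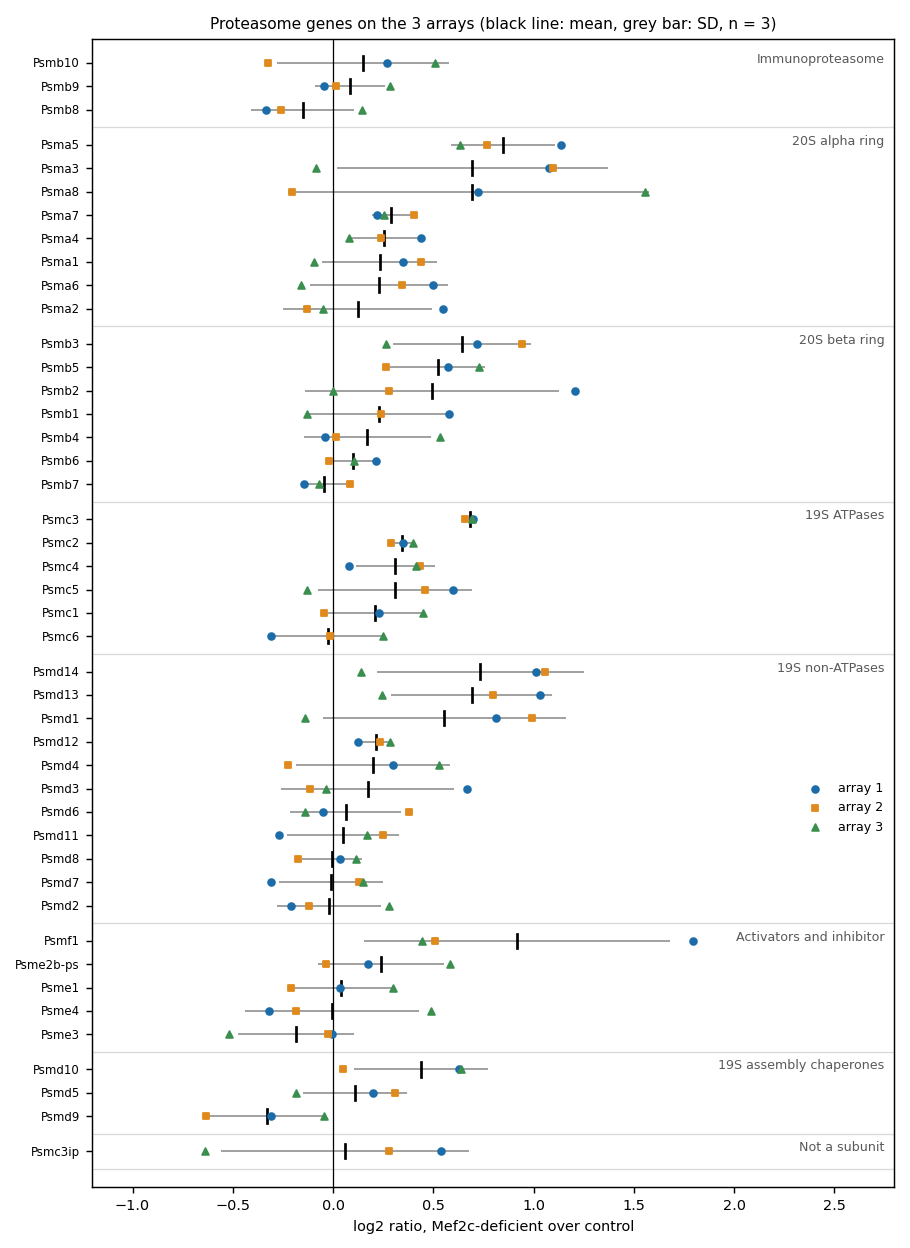
Log2 ratio of Mef2c-deficient over control (horizontal axis) of the 44 genes (rows, by class) on each of the 3 arrays. Symbols are arrays, the black line is the mean and the grey bar the SD (n = 3); most means lie right of 0, from -0.33 for Psmd9 to 0.92 for Psmf1.

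No gene of the 22220 passed an adjusted p under 0.05 in limma's moderated test with Benjamini-Hochberg adjustment (0% called; 2251 genes, 10.1%, had an unadjusted p under 0.05). Of the 44 members, 6 were higher at an unadjusted p under 0.05, against 4.81% of all genes, and 0 were lower, against 5.32%. The 6 were Psma5, Psmc3, Psmd13, Psmf1, Psmb3 and Psmd14. Their adjusted p-values ran from 0.462 to 0.473. Turning array 2 gave a mean ratio of 0.33 for Psma5, 0.24 for Psmc3, 0.16 for Psmd13, 0.58 for Psmf1, 0.01 for Psmb3 and 0.03 for Psmd14. On simulated ratios of this design, limma's unadjusted test found 52 of 67 genes changed 2-fold and its adjusted test found 0 of 67. With array 2 turned, 1 member was higher at that unadjusted threshold, and 2 were with median centring of the arrays or without array 1.

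The subunits were spread less than genes at large. All 44 names were well above background in every sample, and under a filter that asked this of every gene 19520 of the 22220 remained. Spread was not compared at like brightness. Among the 40 subunits the SD of the ratios was 0.49, 0.39 and 0.35 on arrays 1, 2 and 3. Over all genes it was 0.78, 0.58 and 0.54. The SD of one gene over its 3 arrays had a median of 0.28 for subunits and 0.40 for all genes. A mean beyond 0.5 in either direction was reached by 10 subunits (25%), against 20.8% of all genes, and none went beyond 1.

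**Figure D2:**
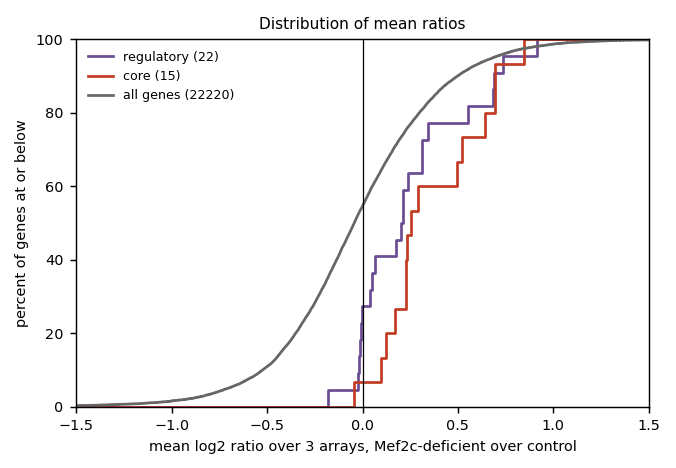
Cumulative percent of genes (vertical axis) at or below a mean log2 ratio of Mef2c-deficient over control (horizontal axis), for the 22 regulatory and 15 core subunits and for all 22220 genes. The regulatory and core curves lie right of that of all genes over most of the range, with medians of 0.20 and 0.25 against -0.04.

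The immunoproteasome had the lowest class mean and the core the highest. Immunoproteasome subunits averaged 0.03 ± 0.26 (SD over arrays, n = 3), with -0.04, -0.19 and 0.31 on arrays 1, 2 and 3, and 2 of 3 genes had a mean above 0. Regulatory subunits averaged 0.25 ± 0.04, with 0.29, 0.23 and 0.23, and 16 of 22 were above 0. Core subunits averaged 0.37 ± 0.16, with 0.54, 0.32 and 0.24, and 14 of 15 were above 0. The immunoproteasome mean was above 0 on array 3 alone, and the regulatory and core means were above 0 on every array.

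The gap between the immunoproteasome and core means was no larger than its spread. Immunoproteasome minus core was -0.58, -0.51 and 0.07 on arrays 1, 2 and 3 (-0.34 ± 0.36), and immunoproteasome minus regulatory was -0.33, -0.42 and 0.09 (-0.22 ± 0.27). Regulatory minus core was -0.25, -0.09 and -0.01 (-0.12 ± 0.12), as large as its SD. It was below 0 on each array, but on array 3 this rested on Psma8. Without that gene the core mean on array 3 was 0.14, below the regulatory mean of 0.23. These differences between chosen lists were not tested. With array 2 turned, the immunoproteasome mean was 0.16, the regulatory mean 0.10 and the core mean 0.15, so the order of the classes rests on the labelled direction of that array. The immunoproteasome mean was -0.13 with median centring and -0.02 with the scanner's processed signals.

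**Figure D3:**
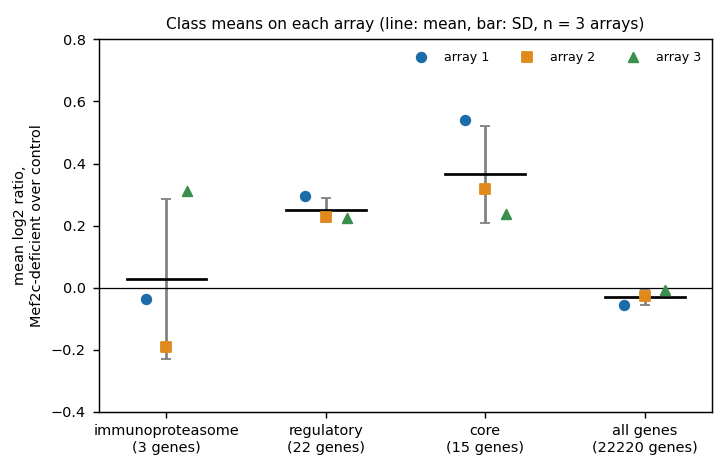
Mean log2 ratio of Mef2c-deficient over control (vertical axis) of the immunoproteasome (3 genes), regulatory (22 genes) and core (15 genes) subunits and of all 22220 genes. Points are arrays and the line with its bar is the mean and SD (n = 3); the immunoproteasome mean is 0.03, the regulatory mean 0.25, the core mean 0.37 and that of all genes -0.03.

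Within the core, the alpha ring had a mean of 0.42 with 8 of 8 genes above 0, and the constitutive beta ring a mean of 0.30 with 6 of 7. Psma5, an alpha ring subunit, had the smallest p of all members as labelled (adjusted p 0.462 in limma). Its level was 13.86, 13.64 and 13.90 in mutant samples, against 12.72, 12.87 and 13.27 in controls. Every mutant sample was above every control, with log2 ratios of 1.14, 0.77 and 0.63 (0.85 ± 0.26 SD), a mean that was 0.33 with array 2 turned. Psma2, the alpha ring subunit with the lowest mean, had ratios of 0.55, -0.13 and -0.05 (0.12 ± 0.37).

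The alpha ring genes did not share 1 profile over the arrays. Chosen after its values were seen, Psma3 had ratios of 1.08 and 1.1 on arrays 1 and 2 and -0.08 on array 3. Psma8, known as the alpha subunit of the testis proteasome and also chosen after its values were seen, had ratios of 0.72, -0.21 and 1.56, the widest spread of the subunits of the core (SD 0.88). Without Psma8 the remaining 14 core subunits averaged 0.34, with 0.53, 0.35 and 0.14 on arrays 1, 2 and 3. The other alpha ring means (Psma1, Psma4, Psma6, Psma7) lay between 0.23 and 0.29.

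Psmb3, a beta ring subunit without catalytic activity, had the highest mean of its ring as labelled, but its mean was 0.01 with array 2 turned, below the 0.34 of Psmb5. Its level was 14.08, 14.40 and 14.09 in mutant samples and 13.36, 13.46 and 13.82 in controls, which did not overlap. The ratios were 0.72, 0.94 and 0.27 (0.64 ± 0.35), with an adjusted p of 0.473 in limma. A second probe of Psmb3 averaged 1.01. Psmb1, Psmb2 and Psmb4, the other beta subunits without a catalytic pair here, had means of 0.23, 0.49 and 0.17, each with at least 1 array at or below 0.

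The catalytic subunits come in pairs of a constitutive and an interferon-induced form. Psmb5, with chymotrypsin-like activity, is replaced by Psmb8, Psmb6, with caspase-like activity, by Psmb9, and Psmb7, with trypsin-like activity, by Psmb10. The windows from 250 bases before to 50 after the start (RefSeq, GRCm38.p6) are shown for the pair that differed most and the pair that differed least, since interferon and stress factors are known to act on proteasome promoters. They lie at chr17:34197945-34198244 (plus strand, Psmb8), chr14:54617946-54618245 (minus strand, Psmb5), chr17:34187281-34187580 (minus strand, Psmb9) and chr11:70525107-70525406 (plus strand, Psmb6). Capitals mark a gamma-activated site (TTCNNNGAA) in Psmb8 and a core of the antioxidant response element (TGACNNNGC) in Psmb5 and Psmb6.
Psmb8: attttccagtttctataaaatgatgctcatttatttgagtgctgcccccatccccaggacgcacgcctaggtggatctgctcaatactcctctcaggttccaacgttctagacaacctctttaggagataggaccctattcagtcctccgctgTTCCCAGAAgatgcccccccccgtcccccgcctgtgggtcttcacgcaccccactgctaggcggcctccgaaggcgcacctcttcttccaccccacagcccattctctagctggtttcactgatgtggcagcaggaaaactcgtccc
Psmb5: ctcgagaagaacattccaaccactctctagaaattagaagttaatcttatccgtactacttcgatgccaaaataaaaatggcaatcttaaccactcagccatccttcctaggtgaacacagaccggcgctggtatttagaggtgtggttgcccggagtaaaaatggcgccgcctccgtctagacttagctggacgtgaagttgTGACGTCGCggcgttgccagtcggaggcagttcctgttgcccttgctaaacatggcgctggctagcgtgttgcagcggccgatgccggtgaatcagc
Psmb9: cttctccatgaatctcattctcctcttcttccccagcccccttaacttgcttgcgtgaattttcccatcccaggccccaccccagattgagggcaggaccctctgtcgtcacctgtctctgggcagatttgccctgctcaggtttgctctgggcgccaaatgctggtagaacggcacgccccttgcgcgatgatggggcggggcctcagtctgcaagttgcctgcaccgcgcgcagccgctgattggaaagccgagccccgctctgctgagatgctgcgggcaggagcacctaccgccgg
Psmb6: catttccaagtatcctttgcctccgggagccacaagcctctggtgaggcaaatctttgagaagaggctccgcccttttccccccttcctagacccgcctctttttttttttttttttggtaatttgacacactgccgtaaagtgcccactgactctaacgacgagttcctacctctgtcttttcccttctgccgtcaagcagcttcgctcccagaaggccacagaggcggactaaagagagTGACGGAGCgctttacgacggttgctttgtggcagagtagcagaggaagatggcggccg
Counted from the start, the gamma-activated site of Psmb8 began at position -97, and the antioxidant core at -47 in Psmb5 and -9 in Psmb6. The window of Psmb9 held neither motif.

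Across the 33 subunits with a RefSeq window the motifs, searched on both strands, were about as common as elsewhere or rested on few genes. The antioxidant core was in 5 of 33 (15.2%; 12.4% of 32851 promoters): Psmb5, Psmb6, Psmc6, Psmd12 and Psme4. The gamma-activated site was in Psmb8 and Psmd2 (6.06%; 8.30% of all). An interferon-stimulated response element was in Psmb3, Psmd4 and Psme1 (9.09%; 3.44% of all). The CCAAT box, not capitalised in the sequences, was in 12 (36.4%; 37.4% of all). A match to these letters is a description and not a shown binding site.

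Psmb8, whose promoter holds the gamma-activated site, had a level of 15.26, 15.02 and 15.24 in mutant samples and 15.59, 15.29 and 15.09 in controls. The groups overlapped, with the mutant sample lower on arrays 1 and 2 and higher on array 3. Its ratios of -0.34, -0.26 and 0.14 averaged -0.15 ± 0.26 (95% interval -0.69 to 0.39), and the mean was 0.02 with array 2 turned. A second Psmb8 probe had ratios of -0.04, -0.25 and 0.27, a mean of -0.01. Psmb5, the constitutive partner of Psmb8, had a level of 13.63, 13.11 and 13.37 in mutant samples and 13.06, 12.85 and 12.64 in controls. Each mutant sample was above all 3 controls, and the ratios of 0.57, 0.26 and 0.73 averaged 0.52 ± 0.24, with an adjusted p of 0.493 in limma. On the brightest probes Psmb8 minus Psmb5 was -0.91, -0.53 and -0.58 on arrays 1, 2 and 3, a mean of -0.67 ± 0.21. It was below 0 on every array. That difference was looked at with the values known and was not tested; with array 2 turned it was -0.32.

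The other pairs did not repeat this. Psmb9 had a level of 15.20, 14.98 and 15.45 in mutant samples and 15.24, 14.97 and 15.16 in controls, and Psmb6 had 15.25, 14.88 and 15.15 in mutant samples and 15.03, 14.90 and 15.05 in controls. Both sets overlapped. The ratio of Psmb9 averaged 0.08 ± 0.17 (95% interval -0.43 to 0.60) and that of Psmb6 0.10 ± 0.12, and with median centring they were -0.12 and -0.10. Psmb9 minus Psmb6 averaged -0.01 ± 0.23, with no sign shared by the 3 arrays.

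Psmb10 was the only immunoproteasome subunit lower on array 2 and higher on the other arrays. Its level was 13.41, 12.63 and 13.16 in mutant samples and 13.14, 12.95 and 12.65 in controls, and its ratio averaged 0.15 ± 0.43 (95% interval -0.46 to 0.76). Psmb7 had 14.62, 14.44 and 14.70 in mutant samples and 14.77, 14.36 and 14.77 in controls, a mean ratio of -0.04 ± 0.12. Psmb10 minus Psmb7 was 0.41, -0.41 and 0.58 (0.19 ± 0.53). The intervals of the 3 immunoproteasome genes all include 0 and reach changes of about the size seen for the core.

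**Figure D4:**
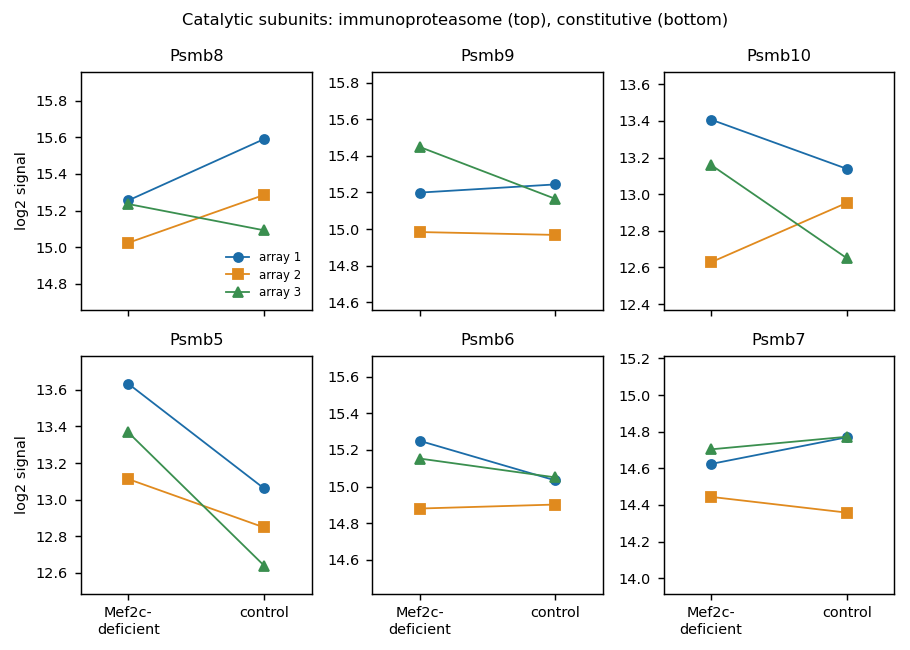
Log2 level (vertical axis) of the 3 pairs of immunoproteasome and constitutive catalytic subunits in each of the 3 Mef2c-deficient and 3 control samples; lines join the samples of 1 array. Psmb5 is the one gene of the 6 whose mutant levels (13.11 to 13.63) all lie above the control levels (12.64 to 13.06).

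The 19S ATPases, which unfold the substrate, had 5 of 6 means above 0 and a class mean of 0.31. Psmc3 was the most even member over the arrays, with levels of 13.93, 13.79 and 13.81 in mutant samples and 13.23, 13.13 and 13.12 in controls. The groups did not overlap and the ratios were 0.70, 0.66 and 0.69 (0.68 ± 0.02), with an adjusted p of 0.463 in limma. Psmc6, another ATPase, had the lowest mean of the ring at -0.03 on its brightest probe, with ratios of -0.31, -0.02 and 0.25. A second Psmc6 probe averaged 0.16. The remaining 4 ATPases averaged between 0.21 and 0.34 on their brightest probes. Second probes averaged 0.59 for Psmc4 and 0.79 for Psmc5, but that of Psmc2 was below 0 on every array and averaged -0.42.

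The 19S non-ATPases had 8 of 11 means above 0 and a mean of 0.24. Psmd14, the lid enzyme that cuts ubiquitin chains off the substrate, had a level of 13.80, 14.13 and 13.46 in mutant samples and 12.79, 13.07 and 13.32 in controls. The mutant levels were all higher, but the ratios of 1.01 and 1.06 on arrays 1 and 2 stood apart from 0.14 on array 3 (0.74 ± 0.52; adjusted p 0.473 in limma). A second Psmd14 probe averaged 0.12. Psmd13, another lid subunit, had levels of 13.76, 13.73 and 13.41 in mutant samples and 12.73, 12.93 and 13.16 in controls, with ratios of 1.03, 0.80 and 0.25 (0.69 ± 0.40). It too was higher in each mutant sample, with an adjusted p of 0.468 in limma.

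Psmd2, a base subunit that docks ubiquitin receptors, had the lowest mean at -0.02 on its brightest probe, with ratios of -0.21, -0.12 and 0.28. A second Psmd2 probe was above 0 on every array and averaged 0.35, so this rank rests on the probe chosen. Psmd1, a base scaffold singled out after its values were seen, had 0.81 and 0.99 on arrays 1 and 2 and -0.14 on array 3, a mean of 0.55. The remaining 7 had means between -0.01 and 0.21. The lid (8 genes) averaged 0.24 and the base (9 genes, ATPases included) 0.29. By array the lid mean was 0.28, 0.32 and 0.12, and the base mean 0.28, 0.27 and 0.30.

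The activators and the inhibitor, which bind the ends of the core, had 3 of 5 means above 0. Psme1, a subunit of the interferon-induced activator PA28, had a level of 14.38, 14.07 and 14.27 in mutant samples and 14.35, 14.28 and 13.98 in controls, and its ratio averaged 0.04 ± 0.25. The probe shared by Psme2, its partner, and Psme2b had 15.38, 15.08 and 15.44 in mutant samples and 15.21, 15.12 and 14.85 in controls, and averaged 0.24 ± 0.31. Both overlapped between groups, and the Psme1 mean was -0.08 with median centring. Psme1 minus the Psme2 probe was below 0 on each array (-0.14, -0.18 and -0.29), which was not tested. A second probe of Psme2 and Psme2b had ratios of -0.17, -0.09 and 0.46, a mean of 0.07. Psme1, with 0.03, -0.21 and 0.30, was above that probe on array 1 and below it on arrays 2 and 3. With array 2 turned the mean was 0.18 for Psme1 and 0.26 for the brighter probe.

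Psme3, the nuclear activator that is not of the interferon-induced pair, was the 1 subunit with no array above 0. Its level was 12.90, 13.19 and 12.65 in mutant samples and 12.91, 13.22 and 13.16 in controls. The ratios were -0.01, -0.02 and -0.52 (-0.18 ± 0.29), so array 3 carried nearly all of the mean. Psme4, an activator known for degrading acetylated histones, averaged -0.01 ± 0.43 on its brightest probe, and its 4 probes ranged from -0.21 to 0.48.

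Psmf1, named for inhibiting the core in vitro, had the highest mean of all 44 genes. Its level was 11.29, 10.98 and 10.95 in mutant samples and 9.5, 10.47 and 10.51 in controls. Control sample 1, the same sample in which the neutrophil markers were highest, was about 1 log2 unit below the other controls, and the ratios were 1.80, 0.51 and 0.44 (0.92 ± 0.76; adjusted p 0.471 in limma). Without array 1 the mean was 0.48. The 3 Psmf1 probes averaged between 0.08 and 0.92.

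The 19S assembly chaperones went separate ways. Psmd10, also known as gankyrin, had ratios of 0.63, 0.05 and 0.64 (0.44 ± 0.34), and its mutant levels did not overlap with the controls. Psmd9 had ratios of -0.31, -0.64 and -0.05 (-0.33 ± 0.29), the lowest mean of the 44, which was 0.09 with array 2 turned. A second Psmd9 probe averaged 0.10. Psmd5 averaged 0.11. Psmc3ip, a recombination factor that is no part of the proteasome, had 0.54, 0.28 and -0.64.

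Among the 15 subunits with more than 1 probe kept, the remaining probes averaged to the sign of the brightest one in 9 and to the opposite sign in 6. In those 6 the brightest probe averaged 0.34 or less in size. The brightest probe was above 0 in 10 of the 15 and the mean of the others in 12. When all probes of a gene were averaged, 35 of the 40 subunits were above 0.

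Of the other genes of the pathway none passed limma's adjusted test. The 20S assembly chaperone Psmg1 had levels of 12.17, 11.82 and 12.74 in mutant samples and 11.10, 11.52 and 11.25 in controls, with ratios of 1.07, 0.30 and 1.49 (0.95 ± 0.60; adjusted p 0.463). Its partner Psmg2 averaged 0.49 ± 0.14. The groups did not overlap for either chaperone, and of the 3 tested genes of that list Psmg1 had an unadjusted p under 0.05. Among 10 tested assembly and 19S-associated genes, 0 did so. Pomp, which matures the core, averaged -0.15, and the small lid subunit Sem1 -0.24. Txnl1, a thioredoxin-like protein bound to the 19S, averaged 0.95 with 2.20 on array 1, and the ubiquitin ligase Ube3c 0.46.

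Of 6 genes of the transcription and processing of the proteasome response, which include the transcription factors Nfe2l1, Nfe2l2 and Nfe2l3, 0 had an unadjusted p under 0.05 in limma, and their mean was -0.02. Nfe2l1, the main factor of the response to proteasome inhibition, had 0.75, 0.05 and 0.50 (0.43). Nfe2l2, the oxidative stress factor, averaged 0.17 on its brightest probe and -0.43 over all its probes. Nfe2l3 had -1.67, -0.44 and -0.16 (-0.76).

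Among 14 ubiquitin and shuttle genes, 1 was higher and 0 were lower at an unadjusted p under 0.05 in limma. The gene was Ufd1, a cofactor of the segregase Vcp, with ratios of 1.24, 0.74 and 0.34 (0.78; adjusted p 0.468 in limma). Of 9 genes of class I antigen processing and its inducers, 1 was higher and 1 lower at that threshold, with a list mean of -0.03. Tap2, a subunit of the peptide transporter, was at 14.54, 14.47 and 14.80 in mutant samples and 15.52, 15.35 and 15.13 in controls. Its ratios were -0.98, -0.89 and -0.33 (mean -0.73, adjusted p 0.463 in limma). Tap1, the other transporter subunit, averaged -0.09, Irf1 -0.53 and the interferon-gamma receptor gene Ifngr1 0.58. Mutant levels of Tap2 were below every control, but its mean was -0.14 with array 2 turned.

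Leaving out an array or scaling the arrays differently kept the regulatory and core means above 0. As each array was left out, the regulatory mean ran from 0.23 to 0.26 and the core mean from 0.28 to 0.43. Median centring moved the median of all genes by -0.13. Relative to the median of all genes, the immunoproteasome mean was 0.04, the regulatory mean 0.31 and the core mean 0.42 with median centring, against 0.07, 0.29 and 0.41 with loess.

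**Figure D5:**
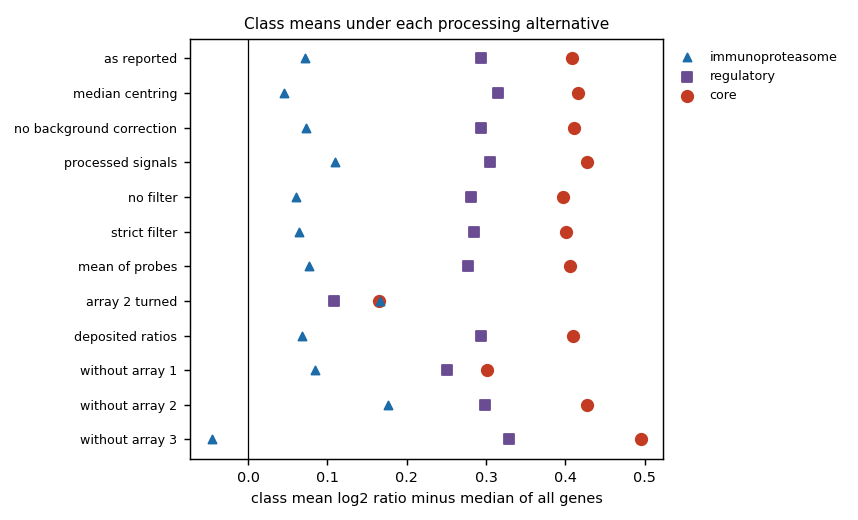
Mean log2 ratio of Mef2c-deficient over control, minus the median of all genes (horizontal axis), of the immunoproteasome, regulatory and core subunits under each processing setting (rows; symbols are classes). With array 2 turned the immunoproteasome and core markers lie on each other, both at 0.17. In every other row the immunoproteasome is the lowest of the 3 and the core the highest. In the row of deposited ratios the array 2 column was first turned to the labelled direction, so that row cannot check the direction of array 2.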

How the data were processed

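Gene expression was measured on 3 two-colour Agilent arrays, each with 1 Mef2c-deficient sample (Cy3) and 1 control sample (Cy5), grouped by the labels. Per the file headers, the scanner files come from Agilent Feature Extraction 9.5.1.1. They hold each spot's intensity in both channels and, per the file headers, its log10 ratio (Cy5 over Cy3). The authors also deposited log2 ratios in a separate table, for which the submitters' processing notes name limma. Their normalization is not stated, and they served as an alternative only.

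Mean foreground and median background intensities were corrected with normexp (offset 50) and loess in limma 3.58.1 (R 4.3.3), with control spots at weight 0 and outlier spots left out (300, 331 and 252 on arrays 1, 2 and 3). Single channels were normalized with Aquantile. Of all probes, 73.4% to 80.4% exceeded background clearly, depending on the channel, and 0 spots were saturated. Probes had to exceed background clearly on 2 or more arrays in 1 channel to be kept (32906), named through RefSeq accession (22951 of all probes), symbol (6659), synonym (3109) or else the file (8455), and each of the resulting 22220 genes was read from its brightest probe. The test of each ratio against 0 used lmFit and eBayes, was two-sided and carried a Benjamini-Hochberg adjustment over all genes. The number of arrays limits the precision. The labels do not say whether replicates are separate animals, so p-values measure the spread between these samples only. The test was checked on simulated ratios.

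The members, classes and other lists were chosen with earlier results of these data known. Named genes were the catalytic pairs, the regulators, in each direction the 6 members with the smallest p that ran one way on all arrays, the highest and lowest of each class, the 2 largest such genes of each other list, and a few fixed regulators of the pathway. The alternatives were median centring, no background correction, processed signals, no or a stricter filter, the mean of probes, array 2 turned, the deposited ratios, and each array left out. Before use, the array 2 column of the deposited ratios was turned to the labelled direction. Values of 2 named genes are not reported here.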

Additional observations from a re-analysis of the deposited data

Results flagged for a closer look

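Signal was present on spots that no comparison uses. The brightest spike-in control probe had a Cy5 signal 174.4, 141.4 and 159.9 times that of the negative control spots on arrays 1, 2 and 3.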

How the results depend on the processing

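No gene was called at an adjusted p under 0.05 under any setting run. The 6 members higher at an unadjusted p under 0.05 became 2 with median centring, 2 with processed signals, 1 with array 2 turned and between 2 and 8 as each array was left out (2 without array 1, 3 without array 2); lower members numbered 0 in every setting. The regulatory mean was 0.14 with median centring, 0.17 with processed signals and 0.10 with array 2 turned, and the core mean 0.15 with array 2 turned. Psmb8 minus Psmb5, compared after seeing the data, was -0.32 with array 2 turned. With array 2 turned, the progenitor gene Slamf1 reversed to -0.36 and the NK cell marker Klrd1 to 0.23. Both had an unadjusted p under 0.05 in limma as labelled. Among other markers with such a p, the mean with array 2 turned was -0.32 for Flt3, 0.18 for Adgre1, -0.64 for Cd74, -0.26 for Cd3g, -1.11 for Camp and -1.86 for S100a9. Named genes without such a p also changed sign there, among them Psmb8 (0.02), Psmd2 (0.06), Psmd9 (0.09), Psme4 (0.12), Pomp (0.11) and Epor (0.04). The cause of these shifts was not tested. At that unadjusted threshold 1069 of all genes were higher and 1182 lower, against 552 and 2320 with median centring, 337 and 308 with array 2 turned, and 633 and 663 without array 1. The test of within-array ratios against 0 is itself the paired analysis, with each array as a pair. A slide block could not be fitted, since all arrays lie on 1 slide.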
